A study of Mus musculus with 5 samples.

Results

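The Toll-like receptors and adaptors described here are 10 genes, picked by symbol from the 25655 symbols of the count table: Tlr1, Tlr2, Tlr3, Tlr4, Tlr6, Tlr7, Tlr9, Tlr13, Myd88 and Cd14. They comprise 8 receptors, 1 adaptor (Myd88) and 1 co-receptor (Cd14), so that the name adaptors covers a single gene. All 10 were found in the table, and each had counts in all 5 retinas.

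Toll-like receptors are membrane proteins of innate immune cells that bind conserved molecules of microbes and, for several of them, molecules released by damaged cells. Receptors for lipids and lipoproteins sit at the cell surface and receptors for nucleic acids in endosomes, and all of those named here except Tlr3 pass their signal through Myd88 to IRAK kinases, TRAF6 and NF-kB. In the retina they are known above all from microglia, the resident macrophages, although glia, endothelium and neurons can express some of them.

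Total RNA of the retina was sequenced from wildtype C57BL/6 mice, 8 to 10 weeks old, whose left optic nerve had been crushed (ONC) 7 days earlier. The question was how the inhibitor of aldose reductase, Sorbinil, alters gene expression in the injured retina. The control group received the vehicle DMSO (3 retinas, replicates 1, 2 and 3) and the treated group Sorbinil at 10 mg/kg (2 retinas, replicates 1 and 3), in both cases by intraperitoneal injection from 24 h before the crush and then daily. All 5 retinas were therefore injured, no uncrushed retina was analysed here, and 1 further Sorbinil retina that the authors set aside was not used here. Nothing in the labels says how the replicates were raised or whether mice were pooled, so that the p-values measure only the spread between these samples.

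Total counts ran from 56096541 to 90288552 per retina, and 14992 genes passed the filter on low counts. Sorbinil replicate 1 stood apart from the other 4 retinas. On the first principal component, which held 65.4% of the variance, its score was 75.8 while the others lay between -28.9 and -7.64, and 2605 genes were at least 2-fold below the DMSO mean in it, compared to 137 in Sorbinil replicate 3. The change of each of the 10 genes, and of the other genes named, is therefore also given without Sorbinil replicate 1, in a fit where the lone Sorbinil retina is assumed to vary like the DMSO retinas. Values per retina are given in replicate order, DMSO first. Levels are CPM, that is counts after TMM scaling of the library sizes, and fold changes are log2 values of Sorbinil against DMSO from edgeR's quasi-likelihood test with Benjamini-Hochberg adjustment over all 14992 genes. A gene is called when its unadjusted p is at most 0.1 and its change at least 2-fold. In whole-tissue RNA, fewer cells of a type and less RNA per cell cannot be told apart.

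Of the 10 genes, 9 had a lower and 1 a higher estimate with Sorbinil, and 1, Tlr1, was called lower and none higher. Over all genes tested, 1.35% were called lower and 0.36% higher. Tlr1 and Cd14 had an unadjusted p under 0.05, as did 5.01% of all genes. In 4 of the 10 (40%), Tlr1, Tlr7, Tlr13 and Cd14, both Sorbinil retinas lay below every DMSO retina, as they did in 10.5% of all genes, and in none did both lie above, compared to 12.8% of all genes. No gene tested passed an adjusted p under 0.05 in this test (0% of all genes), while 751 genes had an unadjusted p under 0.05. The DESeq2 Wald test placed 21 genes under the adjusted threshold and edgeR's likelihood ratio test 14, none of them among the 10.

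The median log2 fold change of the 10 genes was -0.48, and that of all genes tested was -0.008. All 10 passed the filter, but Tlr1 and Tlr6 passed it through the DMSO retinas alone, because neither reached the filter's level of 0.157 CPM (at library size) in any Sorbinil retina. A gene that enters in this way can hardly have other than a lower estimate, so these counts describe the list and do not support a change of it. Over the 8 genes with at least 10 counts in every retina, the median was -0.414. Measured retina by retina against the DMSO mean, the median of the 10 was 0.01, 0.20 and -0.24 for DMSO, set against -0.86 and -0.18 for Sorbinil. Sorbinil replicate 1 thus lay below all DMSO retinas and Sorbinil replicate 3 within them.

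**Figure D1:**
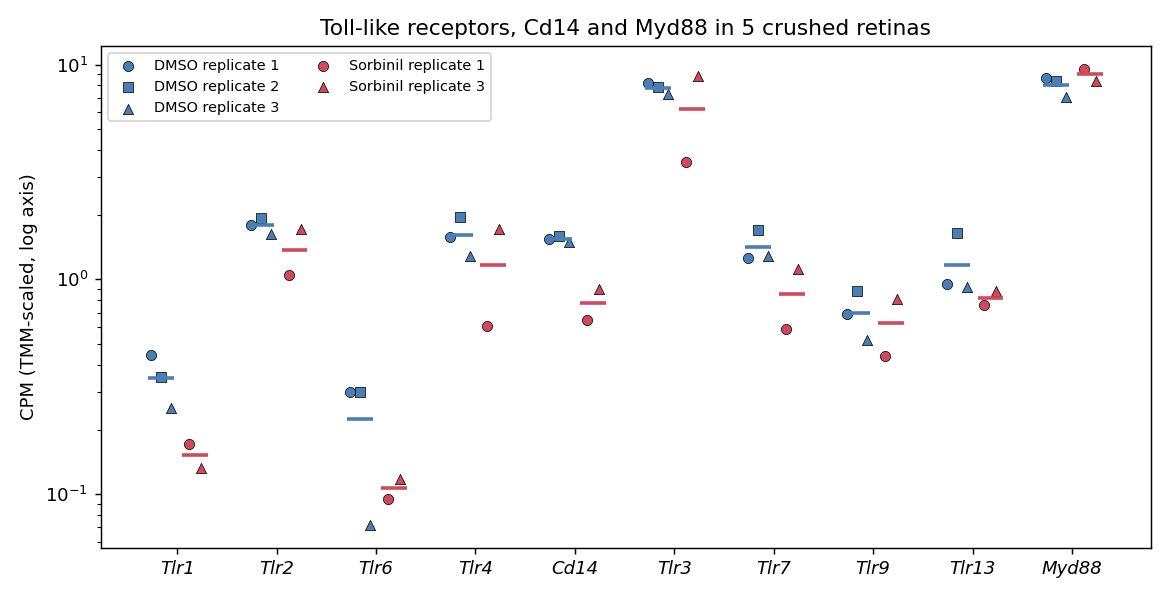
CPM of each of the 10 genes on a log axis, with 1 point per retina and a bar at each group's mean (3 DMSO and 2 Sorbinil retinas). Both Sorbinil points lie below all DMSO points for Tlr1, Cd14, Tlr7 and Tlr13, and Sorbinil replicate 1 is the lowest retina for 7 of the 10 genes.

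Per length of transcript, Myd88 was the most abundant of the 10 genes in the DMSO retinas, at 2.07 ± 0.224 RPKM (SD, n = 3), followed by Tlr3 at 1.46 ± 0.0878 and Cd14 at 0.893 ± 0.0318 RPKM. Each of these was above the next in every DMSO retina. Reads of Acaa1a, an overlapping gene on the opposite strand, may be among those of Myd88, as described below. The first place of Myd88 could depend on them. Tlr2 (0.324 ± 0.0291 RPKM), Tlr7 (0.266 ± 0.0458), Tlr13 (0.247 ± 0.086), Tlr4 (0.229 ± 0.0487) and Tlr9 (0.202 ± 0.0527) followed, and each overlapped its neighbour in this order. Tlr1 at 0.103 ± 0.0285 RPKM and Tlr6 at 0.0461 ± 0.0271 RPKM were the lowest, and did not overlap their neighbours above. In the Sorbinil retinas Myd88 was again the highest, with a mean of 2.31 ± 0.207 RPKM (SD, n = 2), and Tlr6 the lowest, at 0.0219 ± 0.00333 RPKM. RPKM here is the CPM per kilobase of merged exons, so that it compares genes, whereas the CPM below compare retinas.

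Tlr2, with Tlr1 or Tlr6 as its partner, forms the receptor for bacterial lipoproteins at the cell surface. Tlr1 (ENSMUSG00000044827, chromosome 5 from 65082022 to 65090941, minus strand, GRCm39) had 43, 28 and 14 counts under DMSO and 9 in each Sorbinil retina. In CPM these were 0.445, 0.350 and 0.252 with DMSO (0.349 ± 0.0964, SD, n = 3) and 0.171 and 0.133 with Sorbinil (0.152 ± 0.0273, SD, n = 2). Both Sorbinil retinas were below every DMSO retina, and the DMSO retinas differed among themselves by more than the gap to Sorbinil replicate 1. The log2 fold change was -1.22 (SE 0.449, 95% CI -2.33 to -0.106), with an unadjusted p of 0.0367 and an adjusted p of 0.758 by edgeR's quasi-likelihood test. The adjusted p of the 10 genes ranged from 0.758 to 0.896 by this test, and those below are unadjusted unless stated. The exact permutation test over the 10 groupings of the 5 retinas gave a two-sided p of 0.1, the smallest that it can give. Without Sorbinil replicate 1 the fold change was -1.40, and Tlr1 was still called. It was no longer called without DMSO replicate 1, at -0.997, nor without Sorbinil replicate 3, at -1.04 with an unadjusted p of 0.133 by the same test.

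Tlr6 (ENSMUSG00000051498, chromosome 5 from 65108704 to 65203497, minus strand) is the neighbour of Tlr1 and had the lowest counts of the 10 genes. The DMSO retinas had 29, 24 and 4 counts and the Sorbinil retinas 5 and 8. The corresponding CPM of 0.300, 0.300 and 0.072 with DMSO and 0.0951 and 0.118 with Sorbinil overlapped, since DMSO replicate 3 was the lowest of the 5 retinas. The log2 fold change of -1.09 had a 95% CI from -2.85 to 0.662 (unadjusted p of 0.176 by edgeR's quasi-likelihood test), and was -0.96 without Sorbinil replicate 1. Neither no change nor a change of several fold was outside its error. Tlr6 also overlaps Fam114a1 on the opposite strand, a gene with a mean of 153.6 counts and a change of -0.31 (unadjusted p of 0.37 by the same test), or 0.04 without Sorbinil replicate 1.

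Tlr1 and Tlr6 share sequence, which bears on how reads of these low genes could be assigned. Their coding sequences in GENCODE vM39, 2388 bases each, were 74.4% identical when aligned. Of the 75-base windows of the Tlr1 transcript, 11.44% also occur in the Tlr6 transcript, and 7.96% of those of Tlr6 occur in Tlr1. The longest run common to both covers 229 bases, positions 1468 to 1696 of the Tlr1 and 1474 to 1702 of the Tlr6 coding sequence. It is shown because a read that lies within it cannot be told apart between the 2 genes:
Tlr1 and Tlr6 shared run: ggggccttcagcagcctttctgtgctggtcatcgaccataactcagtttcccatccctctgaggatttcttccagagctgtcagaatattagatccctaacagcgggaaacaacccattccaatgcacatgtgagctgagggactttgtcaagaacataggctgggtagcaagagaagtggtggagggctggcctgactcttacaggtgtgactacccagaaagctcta
How the authors' counting treated such reads is not given in the sources used here. With the 2 genes' counts added together, the sums were 72, 52 and 18 with DMSO and 14 and 17 with Sorbinil. The CPM of the sum were 0.745, 0.651 and 0.324 against 0.266 and 0.25, with no overlap between the groups. The fold change of the sum was -1.16 (SE 0.48, 95% CI -2.35 to 0.0273, unadjusted p of 0.0539 by edgeR's quasi-likelihood test), and was -1.20 without Sorbinil replicate 1. A sum lies between its 2 genes by construction, so these values do not show how reads were divided between Tlr1 and Tlr6. The sum was chosen after the values were seen, and each gene passed the filter through the DMSO retinas alone. It is therefore not a separate test of a fall.

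Tlr2 (ENSMUSG00000027995, chromosome 3 from 83743576 to 83749074, minus strand), the common partner, was measured more deeply, with 173, 155 and 90 counts under DMSO and 55 and 116 under Sorbinil. Its CPM were 1.79, 1.94 and 1.62 in the DMSO retinas and 1.05 and 1.71 in Sorbinil replicates 1 and 3. Sorbinil replicate 1 was the lowest retina, and Sorbinil replicate 3 fell between the DMSO values. The fold change was -0.37 (SE 0.313, 95% CI -1.14 to 0.407, unadjusted p of 0.286 by edgeR's quasi-likelihood test) and -0.05 without Sorbinil replicate 1, so that Tlr2 was not distinguishable between the groups beyond the spread of the retinas.

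Tlr4 is the receptor for bacterial lipopolysaccharide, and Cd14 is the co-receptor that hands lipopolysaccharide on to Tlr4 and its partner protein encoded by Ly96. Tlr4 (ENSMUSG00000039005, chromosome 4 from 66745783 to 66849936, plus strand) gave 152, 157 and 71 counts under DMSO, set against 32 and 117 under Sorbinil. In CPM these were 1.57, 1.96 and 1.28 with DMSO and 0.609 and 1.72 with Sorbinil. Sorbinil replicate 1 was the lowest of the 5 retinas, whereas Sorbinil replicate 3 was higher than 2 of the 3 DMSO retinas. The fold change of -0.45 (SE 0.493, 95% CI -1.67 to 0.767) had a p of 0.395 by edgeR's quasi-likelihood test, and turned to 0.11 without Sorbinil replicate 1.

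Cd14 was lower in both Sorbinil retinas. Its counts (ENSMUSG00000051439, chromosome 18 from 36858120 to 36859851, minus strand) were 150, 128 and 83 under DMSO, set against 34 and 61 under Sorbinil. The 3 DMSO retinas agreed closely at 1.55, 1.6 and 1.49 CPM (1.55 ± 0.0538, SD, n = 3), and the Sorbinil retinas had 0.647 and 0.899 CPM (0.773 ± 0.178, SD, n = 2). Against the DMSO mean, this was a log2 difference of -1.22 for the first and -0.77 for the second Sorbinil retina. The fitted change was -0.9974 (SE 0.293, 95% CI -1.72 to -0.271), with the smallest unadjusted p of the 10 genes, 0.0156, and an adjusted p of 0.758 by edgeR's quasi-likelihood test. It missed the 2-fold limit by the third decimal and was not called, while it was called with library-size scaling at -1.08, with upper-quartile scaling at -1.0003 and among genes of at least 10 counts in every retina at -1.002, where Tlr1 was not tested. Without Sorbinil replicate 1 the change was -0.77 (unadjusted p of 0.0382 by the same test), and it ranged from -1.02 to -0.97 when any 1 DMSO retina was left out. The exact permutation p was 0.1.

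**Figure D2:**
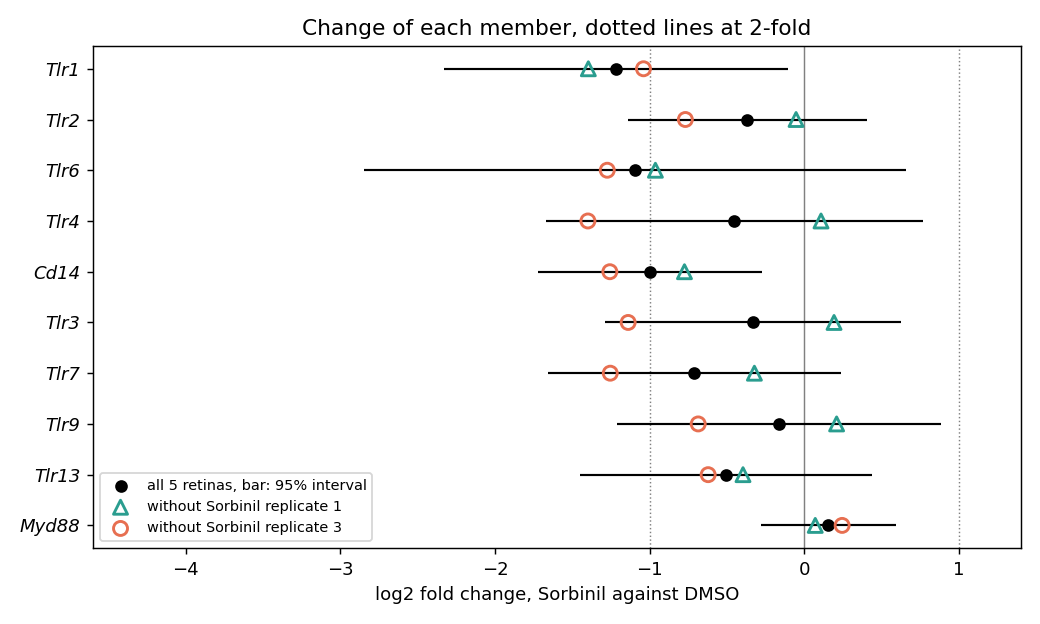
Fitted log2 fold change, Sorbinil against DMSO, of each of the 10 genes over all 5 retinas (black, with the 95% interval) and with either Sorbinil retina left out. Without Sorbinil replicate 1 (triangles) Tlr3, Tlr4 and Tlr9 pass to the other side of 0, and Tlr1 at -1.40 and Cd14 at -0.77 stay below it.

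Tlr3, Tlr7, Tlr9 and Tlr13 detect nucleic acids in endosomes: double-stranded RNA (Tlr3), single-stranded RNA (Tlr7), unmethylated CpG DNA (Tlr9) and bacterial ribosomal RNA (Tlr13). Tlr3 (ENSMUSG00000031639, chromosome 8 from 45848702 to 45864117, minus strand) had the most counts of the receptors, 795, 629 and 405 with DMSO and 186 and 601 with Sorbinil. Its CPM were 8.22, 7.87 and 7.29 in the DMSO retinas, and 3.54 and 8.85 in the Sorbinil retinas. The 2 Sorbinil retinas thus stood on opposite sides of a narrow DMSO range, as the lowest and the highest of the 5. The fitted change was -0.33 (SE 0.387, 95% CI -1.29 to 0.63, unadjusted p of 0.431 by edgeR's quasi-likelihood test), and leaving out Sorbinil replicate 1 gave 0.19, leaving out Sorbinil replicate 3 -1.14. For this gene the depth was ample, and the spread between the Sorbinil retinas set the error.

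Tlr7 (ENSMUSG00000044583, chromosome X from 166086758 to 166113605, minus strand) was counted 122, 135 and 71 times under DMSO, 31 and 76 times under Sorbinil. At 0.590 and 1.12 CPM, both Sorbinil retinas were below the 1.26, 1.69 and 1.28 CPM of DMSO. The change of -0.71 (SE 0.384, 95% CI -1.66 to 0.236) had an unadjusted p of 0.115 by edgeR's quasi-likelihood test and an exact permutation p of 0.1. It was -0.32 without Sorbinil replicate 1. Of the 75-base windows of the Tlr7 transcript, 3.58% also occur in transcripts of other genes on the same strand and 4.82% on the opposite strand, so that some of its reads may be of other origin.

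Tlr9 (ENSMUSG00000045322, chromosome 9 from 106099797 to 106104082, plus strand) was counted 67, 71 and 29 times under DMSO, 23 and 55 times under Sorbinil. Its CPM of 0.693, 0.888 and 0.522 in the DMSO retinas enclosed the 0.810 of Sorbinil replicate 3, while Sorbinil replicate 1, at 0.438, was the lowest. It had the smallest estimate among the receptors, -0.16 (SE 0.423, 95% CI -1.21 to 0.883, unadjusted p of 0.712 by edgeR's quasi-likelihood test), which passed to 0.21 without Sorbinil replicate 1 and to 0.04 without DMSO replicate 2.

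Tlr13 (ENSMUSG00000033777, chromosome X from 105186810 to 105204533, plus strand) gave 92, 131 and 51 counts under DMSO, set against 40 and 60 under Sorbinil. The CPM were 0.951, 1.64 and 0.918 for DMSO against 0.761 and 0.884 for Sorbinil. DMSO replicate 2 was high, and the other 2 DMSO retinas were just above the Sorbinil retinas. The change was -0.51 (SE 0.383, 95% CI -1.45 to 0.44), with an unadjusted p of 0.236 by edgeR's quasi-likelihood test and an exact permutation p of 0.4. It was -0.40 without Sorbinil replicate 1 and -0.18 without DMSO replicate 2. Although its groups did not overlap, the difference was therefore not larger than the spread of the DMSO retinas.

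Myd88 (ENSMUSG00000032508, chromosome 9 from 119165000 to 119170486, minus strand), the adaptor shared by the surface receptors and by Tlr7, Tlr9 and Tlr13, was the only one of the 10 genes with a higher estimate. It gave 840, 674 and 393 counts under DMSO, set against 503 and 572 under Sorbinil. The CPM were 8.69, 8.43 and 7.07 with DMSO (8.06 ± 0.868, SD, n = 3) and 9.57 and 8.43 with Sorbinil (9.0 ± 0.808, SD, n = 2). The groups overlapped, and Sorbinil replicate 1, the lowest retina for Cd14 and for 6 of the 8 receptors, was the highest for Myd88. The change was 0.16 with the narrowest interval of the 10 genes (SE 0.177, 95% CI -0.281 to 0.595, unadjusted p of 0.411 by edgeR's quasi-likelihood test), which leaves a fall of 2-fold outside it, and was 0.07 without Sorbinil replicate 1. Of the 75-base windows of the Myd88 transcript, 12.65% lie on the opposite strand of Acaa1a, a gene of peroxisomal fatty acid oxidation with a mean of 3292 counts. Whether the counting used strand is not given in the sources used here, so that reads of Acaa1a may be among those of Myd88. Acaa1a itself had 46.5 ± 2.9 CPM with DMSO (SD, n = 3) and 48.9 ± 9.92 CPM with Sorbinil (SD, n = 2), a log2 change of 0.07 (unadjusted p of 0.661 by edgeR's quasi-likelihood test), or -0.14 without Sorbinil replicate 1.

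The RefSeq promoter table (GRCm38.p6) held 9 windows for 7 of the 10 genes, each from 250 bases before to 50 bases after an annotated start, and held none for Tlr4, Tlr7 and Cd14. They were searched on both strands for 3 motifs: the letters GAGGAAGT, a site of the myeloid factor PU.1, the letters GGG and TTTCC with any 2 bases between them, an NF-kB site, and 2 copies of GAAA with any 2 bases between them, a site of interferon regulatory factors. Of all 32851 windows of the table, 3.202% held the first, 1.629% the second and 3.443% the third. Tlr1 and Tlr9 each held the PU.1 letters, Tlr3 held the NF-kB letters 211 bases before its start, Tlr6 held the interferon letters at 2 overlapping places, and Myd88 held them once. The other windows of Tlr1 (chr5:65089993-65090292) and Tlr6 (chr5:65117342-65117641) held no match. Tlr2 and Tlr13 held none. The windows of Tlr1 (chr5:65090852-65091151, minus strand), Tlr9 (chr9:106099547-106099846, plus strand) and Myd88 (chr9:119169035-119169334, minus strand) are shown at their positions on GRCm39, with the matched letters in capitals, because the PU.1 letters stand in the only called gene and in the receptor with the smallest change alike, and Myd88 was the gene that went the other way:
Tlr1 promoter: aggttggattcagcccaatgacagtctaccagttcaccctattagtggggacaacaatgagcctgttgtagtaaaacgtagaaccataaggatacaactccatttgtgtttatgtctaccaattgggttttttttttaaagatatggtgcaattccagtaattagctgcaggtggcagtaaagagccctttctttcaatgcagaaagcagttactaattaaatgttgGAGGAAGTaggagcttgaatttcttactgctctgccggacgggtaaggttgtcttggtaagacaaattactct
Tlr9 promoter: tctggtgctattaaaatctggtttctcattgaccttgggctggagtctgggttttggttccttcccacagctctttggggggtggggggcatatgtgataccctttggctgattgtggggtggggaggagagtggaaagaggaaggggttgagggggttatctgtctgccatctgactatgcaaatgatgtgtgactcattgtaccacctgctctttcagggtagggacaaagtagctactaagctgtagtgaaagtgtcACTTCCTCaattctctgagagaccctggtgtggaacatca
Myd88 promoter: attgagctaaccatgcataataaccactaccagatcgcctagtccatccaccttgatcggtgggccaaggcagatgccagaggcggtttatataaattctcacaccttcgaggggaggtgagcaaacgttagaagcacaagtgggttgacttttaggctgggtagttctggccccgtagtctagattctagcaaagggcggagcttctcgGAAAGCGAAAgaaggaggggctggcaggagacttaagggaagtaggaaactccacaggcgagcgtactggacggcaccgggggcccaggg
The match begins 23 bases before the start in Tlr1, 10 bases after it in Tlr9, on the opposite strand, and 40 bases before it in Myd88. A match describes the letters only, and binding was not measured.

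Microglial markers were low in the same retina as the receptors, Sorbinil replicate 1. Of 20 microglial genes, all tested, 19 had a lower and 1 a higher estimate, with a median log2 fold change of -0.457, and none was called. The retina-by-retina medians were 0.08, 0.31 and -0.34 for DMSO, set against -0.98 and -0.10 for Sorbinil, and their summed level was 229.9 to 348.4 CPM with DMSO and 152.8 and 259.5 CPM with Sorbinil. Abundant members of the list had the same order of retinas. Csf1r, the growth factor receptor on which microglia depend, had 45.3, 49.5 and 34.7 CPM with DMSO and 18.6 and 40.5 CPM with Sorbinil. Ctss, a lysosomal protease, had 38.2, 43.7 and 26 against 15.6 and 27.2 CPM. In both genes, DMSO replicate 2 was the highest of the retinas and Sorbinil replicate 1 the lowest. Whether the share of microglia accounts for the receptor values was not tested.

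Markers of other cell types also set Sorbinil replicate 1 apart. Sorbinil replicate 1 had a lower median than every DMSO retina for the markers of endothelium (-2.03 against the DMSO mean), Müller glia (-1.47), retinal ganglion cells (-1.46) and astrocytes (-0.999), and a higher one for those of rods (0.51). In Sorbinil replicate 3 the same medians were -0.77, -0.06, -0.22, 0.09 and -0.34. Those of endothelium and rods were also below every DMSO retina, whose lowest medians were -0.392 and -0.15, and the others were within the DMSO range. For rods the 2 Sorbinil retinas thus lay outside the DMSO range on opposite sides. All 10 endothelial genes had a lower estimate (median log2 fold change -1.306) and 5 were called lower. Of all 14992 genes, 7653 had a lower estimate and 1.35% were called lower. Blood-borne leukocytes were close to the limit of counting: none of 8 neutrophil genes passed the filter, with summed levels of 0 to 0.4754 CPM, and the monocyte receptor Ccr2 had 1, 15 and 0 counts with DMSO and 2 and 1 with Sorbinil. The monocyte and perivascular macrophage list, 5 of 10 tested, summed to 13.56 to 15.97 CPM with DMSO and 4.623 and 11.77 CPM with Sorbinil. Most of this sum was Lyve1, which lymphatic and some other endothelia also express. Gene by gene, 2 of the 5 had a lower and 3 a higher estimate (median log2 fold change 0.141). Relative to the DMSO mean, these 5 genes stood at -0.82 in the first treated retina and at 0.766 in the other (medians). The 3 higher genes, Plac8, Mrc1 and Cbr2, had 2 to 29 counts per retina. Pigment epithelium had its highest median, 0.92, in DMSO replicate 3 and its lowest, -0.84, in Sorbinil replicate 1. The part of these lists in the receptor values was not tested.

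**Figure D3:**
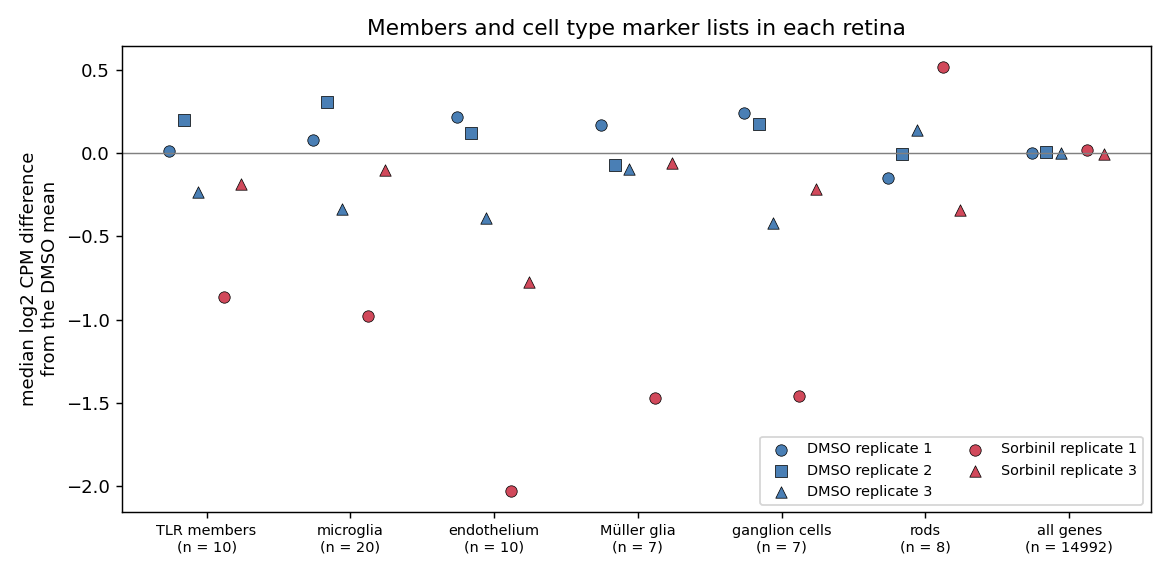
Median log2 CPM difference from the DMSO mean over the 10 genes (TLR members), over marker lists of 5 cell types and over all 14992 genes, with 1 point per retina. Sorbinil replicate 1 is lowest for the 10 genes at -0.86 and for microglia at -0.98, and highest for rods at 0.51, while all retinas lie near 0 over all genes.

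The levels were next set against the microglial list within each retina, as the gene's log2 CPM minus the mean log2 CPM of the 20 markers. On this scale the median difference between the groups was -0.04 over the 10 genes, compared to -0.48 on the scale of all RNA. Tlr2 differed by 0.10, Tlr3 by 0.03, Tlr13 by 0.06 and Tlr4 by -0.10, in each case with overlapping groups. Tlr6 differed by -0.22 and Tlr1 by -0.54, and both overlapped. Tlr1 in Sorbinil replicate 1 stood 0.02 above the DMSO mean and in Sorbinil replicate 3 at -1.09 from it.

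On this scale both Sorbinil retinas lay below every DMSO retina in 2 of the 10 genes, compared to 1.8% of all genes tested, and above in 2 of the 10, compared to 13.9%. The markers enter every value of this scale, so that these shares are not independent of one another. Cd14 was lower relative to the markers, at -0.32 and -0.66 from the DMSO mean in Sorbinil replicates 1 and 3 (difference -0.49, exact permutation p = 0.2). Tlr7 was also lower, at -0.30 and -0.21 (difference -0.25, exact permutation p = 0.2). Tlr9 was higher in both, by 0.29 and 0.34 (difference 0.31), and Myd88 was higher by 1.16 and 0.17 (difference 0.67), each with an exact permutation p of 0.1, the smallest possible. No p adjusted for the 10 genes could pass with this number of retinas. The mean of the markers itself was 3.35 log2 CPM in DMSO replicate 2 and 2.80 in DMSO replicate 3, so that this scale carries the spread of the markers as well. Against the DMSO average, the marker mean stood at -0.906 in the first treated retina and at -0.103 in the other. On the scale of all RNA, Tlr9 stood at -0.616 and 0.232 in these retinas, and Myd88 at 0.252 and 0.069. A higher value relative to the markers is therefore not by itself a rise of the gene.

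**Figure D4:**
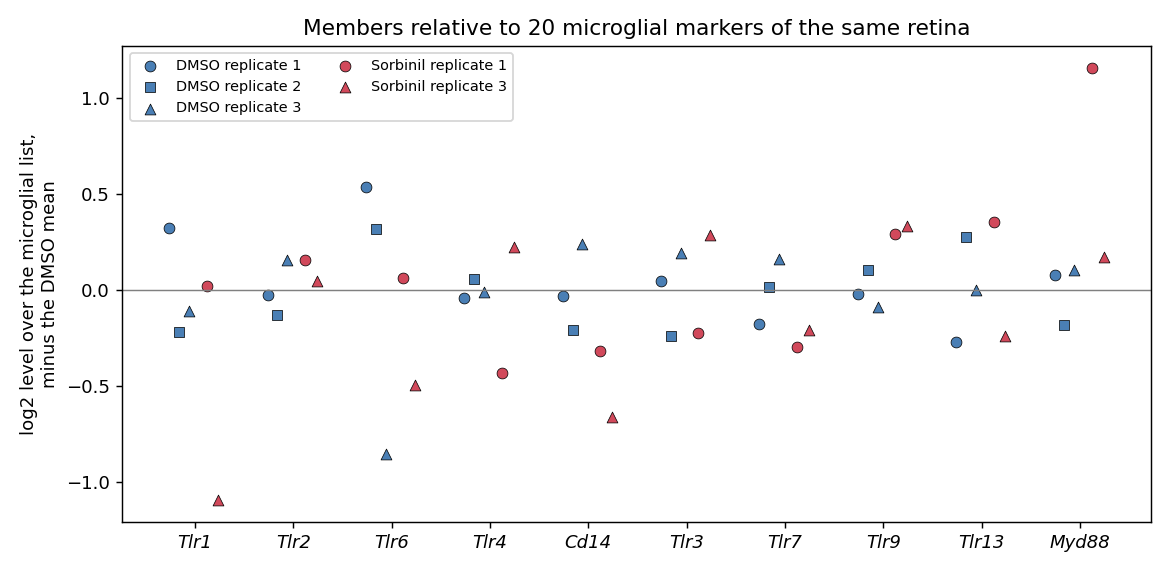
Level of each of the 10 genes relative to the mean of 20 microglial markers in the same retina (log2 scale), with the mean of the 3 DMSO retinas set to 0 and 1 point per retina. Both Sorbinil points lie below the DMSO points for Cd14 and Tlr7 and above them for Tlr9 and Myd88, with Myd88 in Sorbinil replicate 1 the farthest at 1.16.

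The rest of the pathway was read from a list of 74 genes, of which 63 were tested. Of these, 38 had a lower and 25 a higher estimate, with a median log2 fold change of -0.058. In this list 1 was called lower and none higher, compared to 1.35% and 0.36% of all genes. Both Sorbinil retinas lay below every DMSO retina in 11 (17.5%, against 10.5% of all genes) and above in 6 (9.52%, against 12.8%). An unadjusted p under 0.05 was found for 5 genes (7.94%, against 5.01%), S100a8, Tirap, Ly86, Cd36 and Rel, and an adjusted p under 0.05 for none by edgeR's quasi-likelihood test.

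Of the other receptors, Tlr5, for bacterial flagellin, had 16, 29 and 8 counts with DMSO and 4 and 19 with Sorbinil, a change of -0.30 (unadjusted p of 0.687 by edgeR's quasi-likelihood test). Tlr12, for profilin of parasites, had 28, 17 and 10 counts against 9 and 11, a change of -0.46 (unadjusted p of 0.32 by the same test), with both Sorbinil retinas just below DMSO in CPM. Tlr8 was not tested, with 3, 4 and 0 counts against 0 and 1. Tlr11 had no count in any retina, which allows at most 0.031 to 0.0571 CPM per retina (3 counts, counting error only). Tlr5 was at 0.31 and Tlr12 at -0.50 without Sorbinil replicate 1. The intervals with all retinas ran from -2.06 to 1.46 for Tlr5 and from -1.52 to 0.59 for Tlr12, and for Tlr8 and Tlr11 a difference was not detectable at this depth.

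The adaptors had 3 higher and 2 lower estimates, with a median of 0.125, and none was called. Tirap, which bridges Tlr2 and Tlr4 to Myd88, had 11, 11.7 and 10 CPM with DMSO and 18.5 and 13.8 CPM with Sorbinil. Both Sorbinil retinas were above DMSO, and the change of 0.57 (SE 0.182) had an unadjusted p of 0.0219 and an adjusted p of 0.758 by edgeR's quasi-likelihood test. Ticam1, the adaptor of Tlr3, had an estimate of 0.12 (unadjusted p of 0.52 by the same test) and Sarm1, a neuronal relative best known for axon degeneration, one of 0.22 (unadjusted p of 0.232), in both cases with Sorbinil replicate 1 highest and Sorbinil replicate 3 among the DMSO values. Without Sorbinil replicate 1, Tirap was at 0.35 (unadjusted p of 0.0483 by the same test), Ticam1 at 0.02, Sarm1 at -0.02, Ticam2 at 0.50 and Pik3ap1 at -0.36. Ticam2, which links Tlr4 to Ticam1, had 25, 41 and 22 counts with DMSO and 3 and 37 with Sorbinil, the widest gap between the Sorbinil retinas among the adaptors (change -0.32, unadjusted p of 0.712 by the same test). Pik3ap1, an adaptor to phosphoinositide 3-kinase, had 6.23, 6.62 and 5.08 CPM against 4.34 and 4.64 CPM, a change of -0.41 (unadjusted p of 0.0912 by the same test).

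Co-receptors and chaperones had lower estimates in all 7 genes tested, with a median of -0.306, and none was called. Ly86, which encodes MD-1, the partner of the receptor-like protein Cd180, had 5.14, 5.89 and 4.30 CPM with DMSO and 2.74 and 3.39 CPM with Sorbinil, a change of -0.74 (SE 0.239, unadjusted p of 0.0227 by edgeR's quasi-likelihood test). Cd36 encodes a scavenger receptor that aids Tlr2 and is also found on endothelium. It had 4.15, 5.69 and 4.46 CPM against 1.66 and 3.29 CPM, a change of -0.94 (SE 0.357, unadjusted p of 0.0399 by the same test). Both genes were lower in both Sorbinil retinas, with an adjusted p of 0.758. Without Sorbinil replicate 1, Ly86 was at -0.58 (unadjusted p of 0.0455 by the same test) and Cd36 at -0.53 (unadjusted p of 0.0728). Among the kinases and ubiquitin ligases, 6 of 15 were lower and 9 higher (median 0.10). Irak1, the kinase recruited by Myd88, had 16.1, 14.4 and 13.4 CPM against 6.60 and 12.5 (change -0.61, unadjusted p of 0.0819 by the same test), while Traf6, the ubiquitin ligase downstream of it, had 22.5, 24.5 and 23.6 against 30.1 and 26.4 (change 0.26, unadjusted p of 0.0836 by the same test). These were -0.22 and 0.18 without Sorbinil replicate 1.

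Of the transcription factors, 4 of 8 were lower and 4 higher (median 0.05). Rel, the NF-kB subunit c-Rel, had 6.01, 6.51 and 6.41 CPM with DMSO and 11.4 and 7.38 CPM with Sorbinil (change 0.57, SE 0.227, unadjusted p of 0.0472 by edgeR's quasi-likelihood test). Irf5, which acts downstream of Myd88 in macrophages, had 2.21, 2.34 and 1.62 against 1.10 and 1.74 CPM (change -0.53, unadjusted p of 0.161 by the same test). Negative regulators were 5 lower and 4 higher (median -0.093). Cyld, a deubiquitinase, was at 0.12 (unadjusted p of 0.297 by the same test). Sigirr, an inhibitory receptor, was at -0.86 (unadjusted p of 0.307 by the same test), on 4 to 35 counts. Leaving out Sorbinil replicate 1 gave 0.24 for Rel, -0.24 for Irf5, 0.18 for Cyld and -0.64 for Sigirr.

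The endogenous ligands were 5 lower and 3 higher (median -0.126). S100a8, which encodes a neutrophil and monocyte protein that can act on Tlr4, was the 1 called pathway gene, on 16, 56 and 1 counts with DMSO and 0 and 1 with Sorbinil. DMSO replicate 2 held most of the counts and DMSO replicate 3 was at the Sorbinil level. Like Tlr1, it passed the filter through DMSO retinas alone. The fitted change of S100a8 was -4.92 (SE 1.95, 95% CI -9.75 to -0.0931, unadjusted p of 0.0469 by edgeR's quasi-likelihood test), with an adjusted p of 0.758. With the counts of each group pooled, its ratio of DMSO to Sorbinil was 37.9. The counting interval of that ratio, from 6.59 to 1520, leaves out the spread between retinas. S100a8 was not called without DMSO replicate 2, and its change was -4.21 without Sorbinil replicate 1. S100a9, its partner, was not tested over all 5 retinas, with 11, 68 and 1 counts against none, and the neutrophil markers were highest in the same retina, DMSO replicate 2 (0.4754 CPM summed). Fn1, fibronectin, had 41.4, 43.5 and 37.8 CPM with DMSO and 11.7 and 39.6 CPM with Sorbinil (change -0.67, unadjusted p of 0.217 by edgeR's quasi-likelihood test), and was at -0.04 without Sorbinil replicate 1.

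The genes that these receptors are known to induce were largely at the limit of counting. Of the 16, 9 were tested, 7 with a lower and 2 with a higher estimate (median -0.093), and none was called. Tnf had 9, 6 and 2 counts with DMSO and 2 and 5 with Sorbinil, and Il1b had 1 or 2 counts in every retina. A difference in either gene was not detectable at this depth. Icam1, an adhesion molecule of endothelium and leukocytes, had 1.62, 2.08 and 1.17 CPM against 0.742 and 1.16 (change -0.77, unadjusted p of 0.0948 by edgeR's quasi-likelihood test). Ccl3, a chemokine of microglia, had 36, 28 and 10 counts against 6 and 15 (change -0.84, unadjusted p of 0.169 by the same test), and Ccl2, a monocyte chemokine named here after its values were seen, had 11, 14 and 10 counts, or 0.114, 0.175 and 0.18 CPM, against 12 and 17 counts, or 0.228 and 0.25 CPM (change 0.63, unadjusted p of 0.186 by the same test). The groups overlapped for Ccl3, while both Sorbinil retinas were above every DMSO retina for Ccl2. When Sorbinil replicate 1 was left out, Icam1 was at -0.48, Ccl3 at -0.46 and Ccl2 at 0.71.

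**Figure D5:**
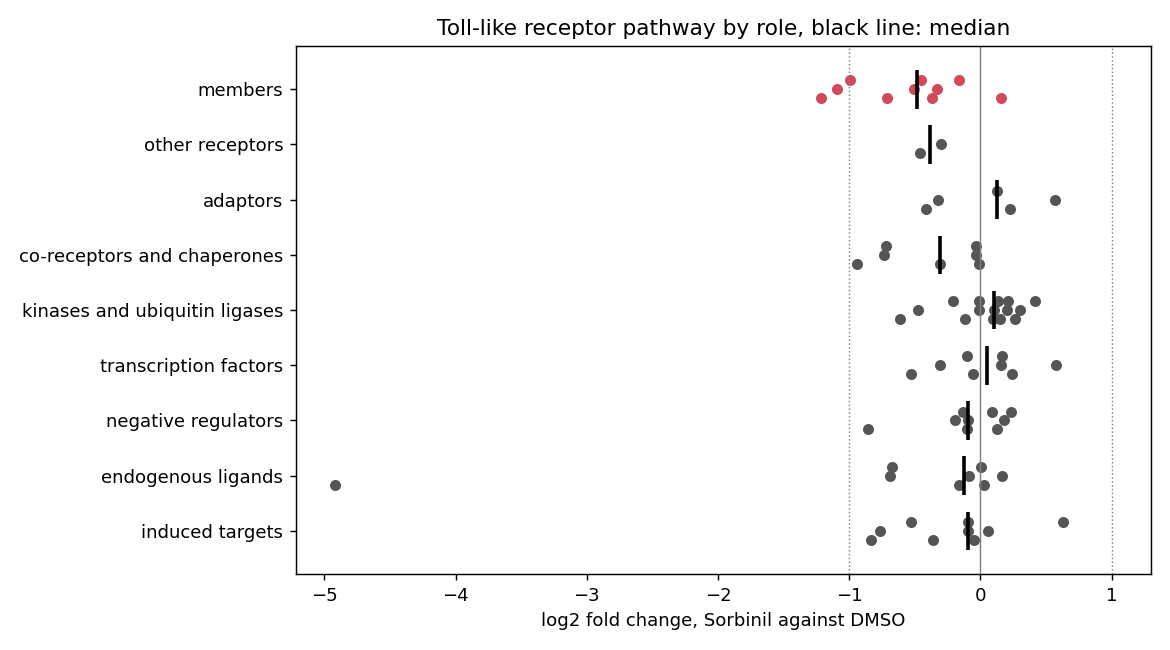
Fitted log2 fold change, Sorbinil against DMSO, of each tested gene of the pathway, grouped by role, with a black line at each group's median and dotted lines at 2-fold. The 10 genes at the top (members) have a median of -0.48, the kinases one of 0.10, and the point near -5 is S100a8, whose Sorbinil retinas had 0 and 1 counts.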

How the data were processed

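Total RNA libraries of 5 retinas were analysed, 3 DMSO and 2 Sorbinil. The authors trimmed adaptors, mapped the reads in CLC Genomics Workbench (default settings), and the deposited values are raw whole-number counts of each gene, with no normalization. The submitters' processing notes name GRCm39 and mm39. The annotation release, the treatment of reads on several genes and the use of strand are not given in the sources used here, although all of them shape the counts. Columns were assigned by the names they share with the labels, and 0 value columns were left out. No 2 retinas agreed within sampling noise (lowest chi-square 25.51 per degree of freedom), and each is 1 replicate.

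After filterByExpr (minimum count 10) and TMM scaling, the quasi-likelihood test of edgeR 4.0.16 (glmQLFit, glmQLFTest) was run in R 4.3.3, which also held limma 3.58.1. Genes were called at the threshold of the study. A prior count of 2 entered log2 CPM, and intervals are at 95%. Single values were tested by exact two-sided permutation over the 10 groupings of retinas. The steps were tested on simulated data.

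The genes named are the 10 members, the other receptors and adaptors, called pathway genes, the 2 genes of smallest p in each other role and up to 3 abundant markers per cell type. S100a9, Tnf, Il1b, Ccl2, Ccr2, Acaa1a and Fam114a1 were added after their values were seen. The values of 1 marker gene are not reported here. Members and lists were chosen with earlier results of these data known. Depth ran from 56096541 to 90288552 counts. Reads carry no molecular identifiers, so intervals and floors cover counting error only. Alternatives were other filters, scalings and thresholds, edgeR's likelihood ratio test, DESeq2 1.42.0, the replicate number as a block and leaving out each retina. A further one, the summed counts of Tlr1 and Tlr6, was chosen after seeing the data. Positions, lengths and coding sequences came from GENCODE vM39 on GRCm39, and promoter windows from RefSeq (GRCm38.p6), placed on GRCm39 by an exact match of the sequence with Python 3.11.15 and Biopython 1.88.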

Additional observations from a re-analysis of the deposited data

How the results depend on the processing

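No setting that kept all 5 retinas changed the sign of a member's estimate. Of the 10 members, 1 was called lower in the reported analysis, 2 with upper-quartile scaling, 2 with library-size scaling and 2 with no fold limit, Cd14 being added to Tlr1 in each, and 0 with the replicate block, where Tlr1 had -1.15 (unadjusted p of 0.216). With at least 10 counts in every retina the 1 called was Cd14, Tlr1 being untested. Leaving out 1 DMSO retina gave 0 to 3 lower members (0 without DMSO replicate 1, 3 without DMSO replicate 3). The share of all genes called in these fits is not given here, and no gene had an adjusted p under 0.05 in them. With any 1 retina left out, the members' median ran from -1.089 (without Sorbinil replicate 3) to -0.187 (without Sorbinil replicate 1). Tlr3 at 0.19 and Tlr4 at 0.11 reversed without Sorbinil replicate 1 (their ranges began at -1.14 and -1.40), and Tlr9 at 0.21 without it and at 0.04 without DMSO replicate 2 (range from -0.69). In a fit that leaves out 1 Sorbinil retina, the other was assumed to vary like the DMSO retinas. The p-values and calls of such a fit, where given, are therefore not used as evidence of a change. Other pathway genes called lower numbered 1 as reported, 2 with no filter, 0 with at least 10 counts in every retina, 6 with no fold limit (with 3 called higher), and 0 to 11 with 1 retina left out, 0 of them without DMSO replicate 2. The highest of these counts came from the fit without Sorbinil replicate 3, whose calls rest on 1 Sorbinil retina. The share of all genes called is not given for these settings either, so the counts do not set the pathway genes apart. The median of the other pathway genes, -0.058 as reported, was -0.133 with library-size scaling, which moved the median of all genes to -0.11. It ranged from -0.146 to -0.035 with 1 retina left out. The microglial median ranged from -1.023 to -0.109. The members' median relative to that list reversed to 0.045 with at least 10 counts in every retina, which leaves 8 members without Tlr1 and Tlr6, and to 0.041 without Sorbinil replicate 3 (lowest -0.082). The causes of these shifts were not tested. Without DMSO replicate 1 or 2, Tlr6 did not pass the filter. Whether replicate numbers pair the retinas is not known. Same-numbered retinas deviated with correlations of -0.243 and -0.125. With 2 Sorbinil retinas, their deviations mirror each other, so these values cannot decide it. The block placed 4 genes at an adjusted p under 0.05 compared to 0 without it. With 9 and 9 counts of Tlr1 and 5 and 8 of Tlr6 in the Sorbinil retinas, depth limits both.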
